A study of Homo sapiens with 4 samples.

Results

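The genes described here encode the machinery that copies DNA in S phase and the enzymes that supply its building blocks. They were taken by symbol from a list of 41 genes with roles in origin licensing, the replicative helicase, polymerases, clamp loading, dNTP supply and chromatin assembly, including the regulator E2F1. All 41 were found among the 56271 rows of the count table, and all 41 passed the filter on low values (RPKM, reads scaled to gene length and depth, above 1 in at least 2 of 4 libraries). The rule used no expression value.

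SKBR3 is an established HER2-positive breast cancer cell line. Poly-A-enriched RNA was sequenced from 2 eGFP control libraries, transduced with a lentivirus that expresses eGFP from the human ubiquitin C promoter, and from 2 VIRMA-overexpressing libraries, transduced with full-length HA-tagged VIRMA joined to eGFP by a p2A peptide in the same FUW vector. Both groups were therefore transduced, sorted for eGFP and expanded as pools, with 1 sorted population per construct described. The study calls the 2 libraries of a group biological duplicates, and no separate derivation is given for them. The growth and treatment labels of every library describe a hypoxic chamber, which the study's sequencing methods do not mention, so whether these cultures were hypoxic is uncertain.

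Before a cell can replicate, the origin recognition complex, CDC6 and CDT1 load the ring of MCM2 to MCM7 onto DNA in G1, and geminin (GMNN) prevents a repeat of this step in the same cycle. CDC45 and the GINS complex then join the ring to form the active CMG helicase, behind which primase, DNA polymerases, the sliding clamp PCNA and its loader replication factor C work. Many of these genes are targets of E2F transcription factors and are transcribed around the passage from G1 into S phase, so their summed level in a culture is widely read as a proliferation signature.

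VIRMA, listed under its older symbol KIAA1429, checked the labels: 8.54 and 8.15 CPM in eGFP control cells and 40.1 and 41.4 CPM in VIRMA-overexpressing cells, where CPM are counts scaled to library size with TMM (trimmed mean of M values) factors. Library totals ran from 81446932 to 86375474 counts. The line's markers ERBB2 (7098 and 6933 against 7010.0 and 7011 CPM), KRT8, KRT18 and KRT19 were abundant in every library, PGR had 0 counts and CDH1 averaged 0.096 CPM in the controls and 0.297 CPM with VIRMA. Of the 9 epithelial and HER2 line markers, 3 were lower and 4 higher without overlap, among them KRT8 (8317 and 8256 against 5789 and 5846 CPM), EPCAM (193 and 200.1 against 144 and 156 CPM) and GRB7 (772 and 764 against 1030.0 and 1038 CPM). Of 11 erythroid markers, 9 were lower in both VIRMA-overexpressing libraries than in both controls, with summed levels of 28.2 and 20.5 CPM in the controls against 0.561 and 0.491 CPM, and with HBB, HBD, SLC4A1, AHSP and HEMGN among those at 0 in both VIRMA-overexpressing libraries. Leukocyte markers (10 genes, 6 lower and 2 higher without overlap, MS4A1 at 0 throughout) summed to 2.71 to 4.26 CPM in the controls and 2.15 to 2.35 CPM with VIRMA, and fibroblast and endothelial markers (9 genes, 5 lower and 1 higher, LUM at 0 in both VIRMA-overexpressing libraries) to 19.8 to 21.4 and 16.4 to 17.9 CPM. Over all 12205 tested genes, 5078 were lower and 5211 higher without overlap, shares near those of the epithelial list. Its higher markers include CDH1 and ESR1, both too low to be tested. Of the erythroid markers, only HBB passed the filter. Erythroid and some epithelial markers still differed between the groups, and their part in the results below was not tested.

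Transcripts of the replication machinery were lower in VIRMA-overexpressing cells at the adjusted p for every gene but RFC1, whose libraries overlapped. The 41 genes together held 3238 and 3221 CPM in eGFP control cells and 1380 and 1395 CPM in VIRMA-overexpressing cells, or 43.0% of the control mean. Of the 41 genes, 28 fell past both thresholds of the study (a change beyond 2-fold at an adjusted p under 0.05), against 2.93% of all 12205 genes tested in that direction, and 0 rose, against 4.52%. At the adjusted p alone 40 fell and 0 rose, against 35.9% and 35.1% of all tested genes. The VIRMA-overexpressing libraries both lay below both controls for 40 of the 41 genes, against 41.6% of all tested genes. The median log2 fold change was -1.20 over the 41 genes and 0.01 over all tested genes, and 32 of the 41 lay among the 5% of tested genes with the lowest log2 fold changes. In bulk RNA, fewer cells in S phase and less of these RNAs per cell cannot be told apart. In separate growth assays, the study reports increased proliferation and colony formation of SKBR3 cells with full-length VIRMA. Growth was not measured in the RNA libraries, and the relation of these RNA levels to those assays was not tested.

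The changes were large against the spread between replicates. Replicates of the 41 genes differed by a median of 0.048 on the log2 scale in the controls and 0.066 with VIRMA, at most by 0.292 (POLE2) and 0.319 (ORC1). Levels relative to control formed a range rather than a single step: 7 genes stood below 30% of control, 21 between 30% and 50%, 12 between 50% and 70%, and RFC1 above 70%. Every gene had at least 266 counts in every library, and the standard errors of the log2 fold changes ran from 0.0313 (TK1) to 0.136 (CDC7). An exact permutation test on 4 libraries, two-sided, has a smallest possible p of 0.33. The adjusted p-values given here are therefore those of edgeR's model over all tested genes, and each ± beside a log2 change is its standard error.

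**Figure D1:**
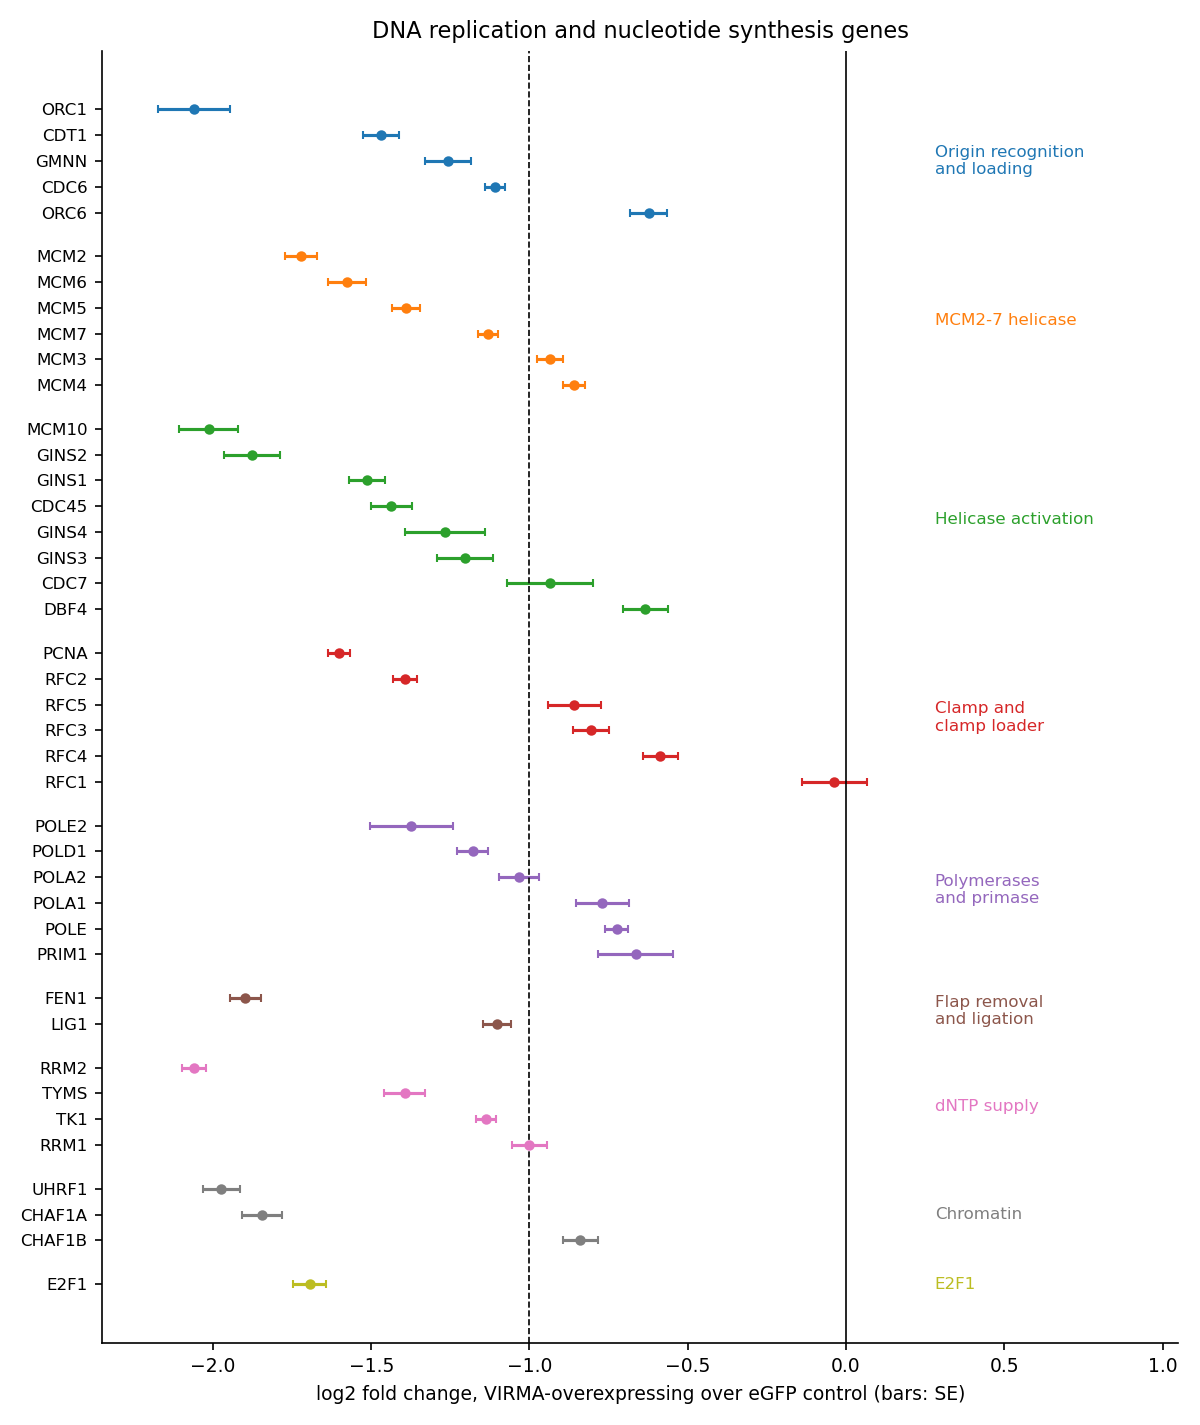
The log2 fold change of each gene (x axis, VIRMA-overexpressing over eGFP control, 2 libraries each) is plotted by role, with bars for the standard error and a dashed line at -1. The points run from -2.06 for RRM2 and ORC1 to -0.04 for RFC1, the only gene whose bar reaches 0, and 28 lie left of the dashed line.

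**Figure D2:**
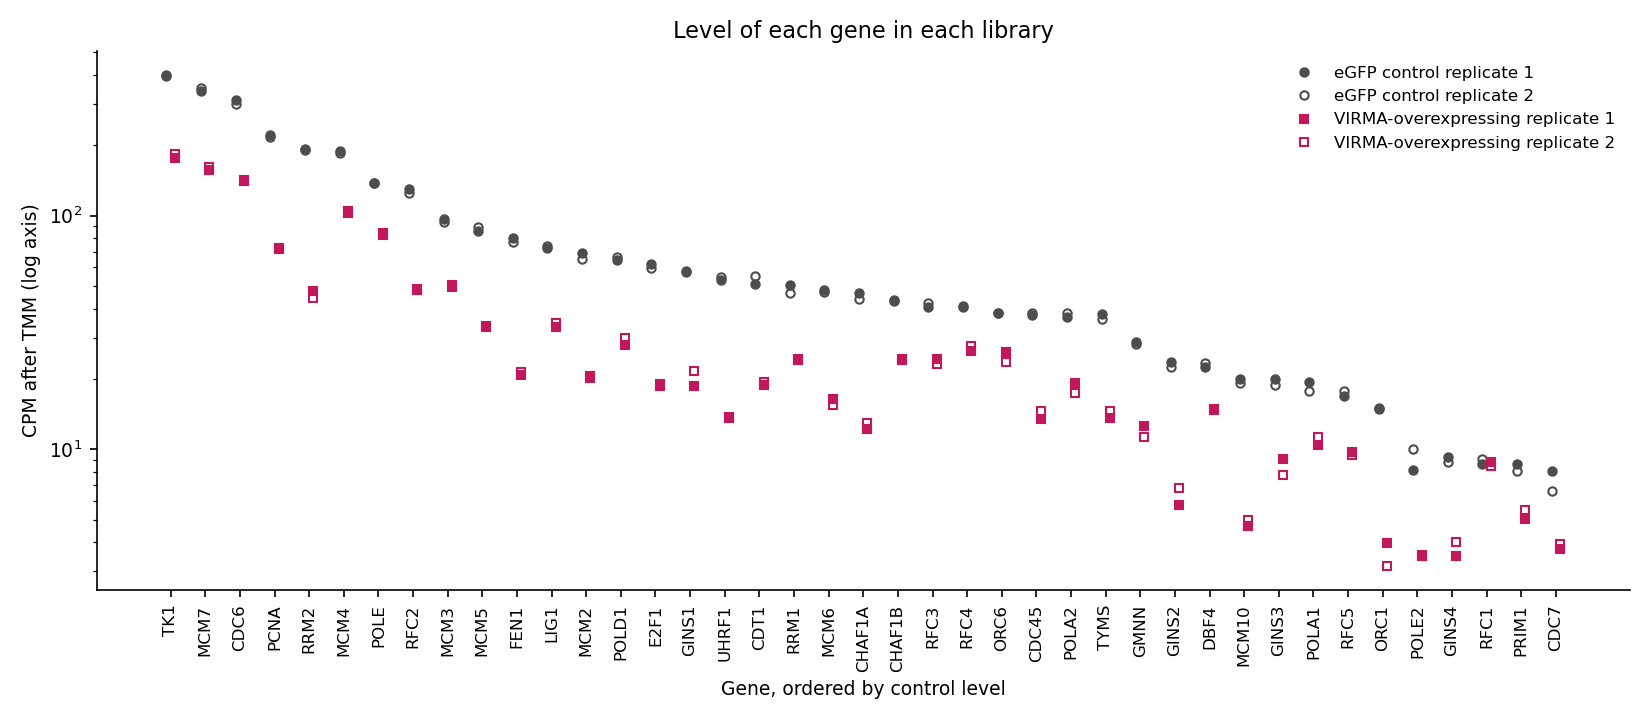
Each gene's CPM after TMM (log axis) is shown in all 4 libraries, with genes ordered by control level, circles for eGFP control and squares for VIRMA-overexpressing libraries. The squares lie below the circles for every gene but RFC1, from TK1 at the top to the genes under 10 CPM on the right.

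The promoters of these genes were also searched for short letter patterns. The list was picked by role and holds many E2F targets, so its share of E2F-type letters does not depend on the expression values. RefSeq windows (GRCh38.p14) from 250 bases before to 50 after the annotated start were matched by symbol for 38 of the 41 genes, and MCM4, MCM5 and GINS4 had no entry. E2F-type letters (TTTCCCGC, TTTGGCGC, TTTCGCGC or TTTGCCGC on either strand, overlapping matches counted) were found in 19 of 38 windows, or 50%, against 5.71% of the 7990 tested genes with a window and 3.33% of all 27305 windows, taking the first window listed for a gene. Over every window listed for a gene the shares were 55.3% and 6.97%. Of the 26 matches, 16 began within the 100 bases before the start and 4 after it. The windows are shown for the 6 genes that fell most among those past both thresholds with a match. Each runs 5′ to 3′ on the gene's strand from 30 bases before the first match to 30 after the last, with the E2F-type letters in capitals.

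UHRF1: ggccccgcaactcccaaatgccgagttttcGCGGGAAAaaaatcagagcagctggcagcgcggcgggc
GINS2: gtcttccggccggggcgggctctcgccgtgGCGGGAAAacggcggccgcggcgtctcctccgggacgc
MCM2: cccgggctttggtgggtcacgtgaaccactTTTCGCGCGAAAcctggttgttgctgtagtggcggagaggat
E2F1: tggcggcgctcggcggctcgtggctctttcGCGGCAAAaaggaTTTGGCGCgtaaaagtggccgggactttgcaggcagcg
PCNA: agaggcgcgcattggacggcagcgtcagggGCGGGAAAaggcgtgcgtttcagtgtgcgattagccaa
MCM6: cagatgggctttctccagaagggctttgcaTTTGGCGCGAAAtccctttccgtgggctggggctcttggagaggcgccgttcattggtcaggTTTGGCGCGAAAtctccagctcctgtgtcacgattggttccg

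These windows lie at chr19:4909457-4909524 (plus strand) for UHRF1, chr16:85688948-85689015 (minus strand) for GINS2, chr3:127598383-127598454 (plus strand) for MCM2, chr20:33686368-33686448 (minus strand) for E2F1, chr20:5126644-5126711 (minus strand) for PCNA and chr2:135876492-135876625 (minus strand) for MCM6. In MCM2 overlapping matches on both strands form a palindrome just inside the transcript, and MCM6 holds 2 such pairs of overlapping matches before its start. The median log2 fold change was -1.37 for the 19 genes with a match and -1.14 for the 19 without, a difference that was not tested. Some of the most lowered genes, RRM2, ORC1, MCM10, FEN1 and CHAF1A, had no match, which says only that these letters were not in that window. CCAAT was in 55.3% of the 38 windows and 37.1% of those of tested genes, the GC box GGGCGG in 73.7% and 72.0%, and the cell cycle homology letters (TTTGAA or TTCGAA) in 7.89% and 10.5%. Over all tested genes with a window, the median log2 fold change was -0.13 with E2F-type letters and -0.03 without. These tested genes include the 38 genes of the list, and the difference was not tested.

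**Figure D3:**
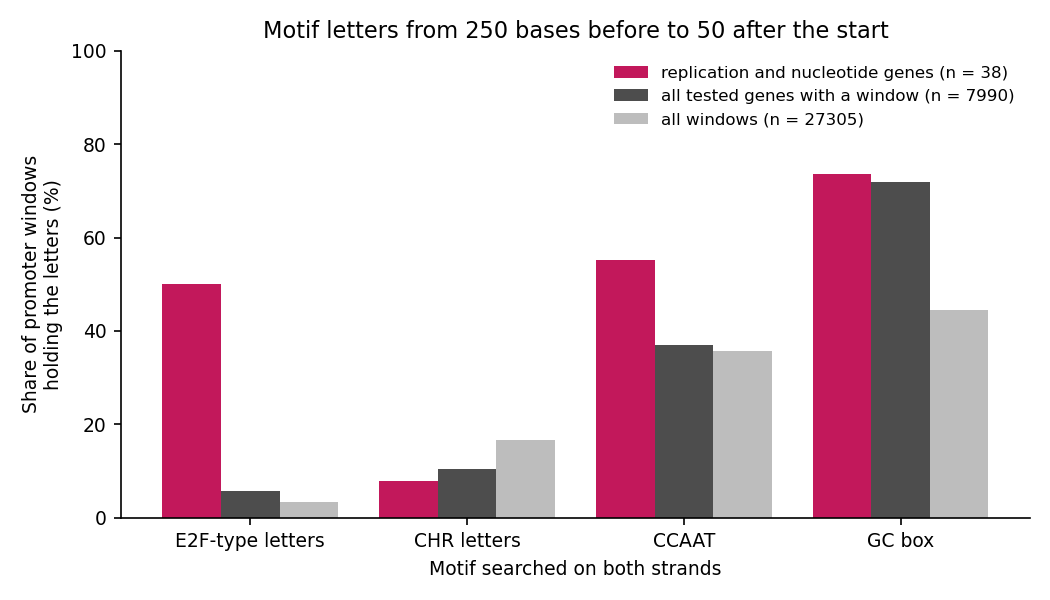
Bars give the share of promoter windows (%) that hold each set of letters on either strand, for the 38 replication and nucleotide genes with a window, the 7990 tested genes with a window and all 27305 windows. E2F-type letters stand at 50%, 5.71% and 3.33%, while the GC box is at 73.7% and 72.0% in the first 2 sets.

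E2F1 itself (GRCh38 chromosome 20, 33675683 to 33686404, minus strand), the activator that drives many of these genes and is one of its own targets, was at 61.8 and 59.9 CPM in eGFP control cells and 18.6 and 18.9 CPM in VIRMA-overexpressing cells. The groups did not overlap, and E2F1 fell by 1.69 ± 0.0523 in log2 units (adjusted p = 2.4e-25) to 30.9% of control.

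The genes of origin recognition and loading all fell, 4 of 5 past both thresholds, with a median log2 fold change of -1.26. ORC1 (GRCh38 chromosome 1, 52372829 to 52404459, minus strand), the subunit of the origin recognition complex whose level cycles, was at 14.9 and 14.9 CPM in eGFP control cells and 3.97 and 3.18 CPM in VIRMA-overexpressing cells. The groups were far apart, and ORC1 fell by 2.06 ± 0.113 in log2 units (adjusted p = 4.36e-18). ORC6, the smallest subunit, went from 38.3 ± 0.0169 to 24.9 ± 1.67 CPM (SD, n = 2), or 64.9% of control, a log2 fold change of -0.62 that did not reach the fold threshold. CDC6, the ATPase that loads the helicase with ORC, stood at 311 and 301 CPM in eGFP control cells and 141 and 142 CPM in VIRMA-overexpressing cells and fell to 46.4%. CDT1, its partner in loading, stood at 51.1 and 54.9 CPM in eGFP control cells and 18.9 and 19.4 CPM in VIRMA-overexpressing cells and fell to 36.1% of control. Its inhibitor GMNN was at 28.8 and 28.2 CPM in eGFP control cells and 12.6 and 11.3 CPM in VIRMA-overexpressing cells and fell to 41.8%, so both the loader and the inhibitor were lower. Per length, the CDT1 level was 1.32 and 1.44 times that of GMNN in the controls and 1.11 and 1.28 times with VIRMA, groups whose nearest values lay closer than replicates did.

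All 6 subunits of the MCM2 to MCM7 ring fell, and 4 passed the fold threshold. MCM2 (GRCh38 chromosome 3, 127598223 to 127622436, plus strand), whose promoter letters are shown above, was at 68.97 and 65.4 CPM in eGFP control cells and 20.1 and 20.6 CPM in VIRMA-overexpressing cells, a log2 change of -1.72 ± 0.0507 (adjusted p = 5.73e-26). MCM6 was at 48.2 and 47.1 CPM in eGFP control cells and 16.4 and 15.5 CPM in VIRMA-overexpressing cells, or 33.5% of control, and MCM5 at 86.3 and 88.9 CPM in eGFP control cells and 33.3 and 33.5 CPM in VIRMA-overexpressing cells, or 38.1%. For each of these subunits the replicates lay far closer together than the groups. MCM7, the most abundant of the 6 by RPKM, was at 342 and 352 CPM in eGFP control cells and 156 and 161 CPM in VIRMA-overexpressing cells and fell to 45.7%. MCM3 (97.02 and 93.99 against 49.4 and 50.6 CPM) and MCM4 (189 and 186 against 102 and 104 CPM) had the smallest log2 changes of the ring, at 52.3% and 55.1% of control, with log2 fold changes of -0.93 and -0.86.

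The protein ring holds 1 copy of each subunit, but its transcripts, scaled to length, were unequal in both groups. The length used is all annotated exonic bases of a gene (7338 for MCM5, 3650 for MCM3), not that of the expressed mRNA. The order of the subunits depends on it, as does the size of every ratio per length given here. The change of such a ratio between the groups does not. In RPKM after TMM the controls had 79.1 for MCM7, 27.4 for MCM4, 26.2 for MCM3, 13.7 for MCM2, 11.9 ± 0.257 for MCM5 and 11.6 ± 0.191 for MCM6 (SD, n = 2), the closest neighbours. The order in the VIRMA-overexpressing libraries was MCM7 at 36.1, MCM4 at 15.1, MCM3 at 13.7, MCM5 at 4.55, MCM2 at 4.15 and MCM6 at 3.88. The highest subunit was 6.66 and 7.02 times the lowest in the controls and 8.93 and 9.72 times with VIRMA overexpressed, so the levels lay further apart in both of the latter. MCM7 shares 8.94% of its exonic bases with AP4M1 on the opposite strand.

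**Figure D4:**
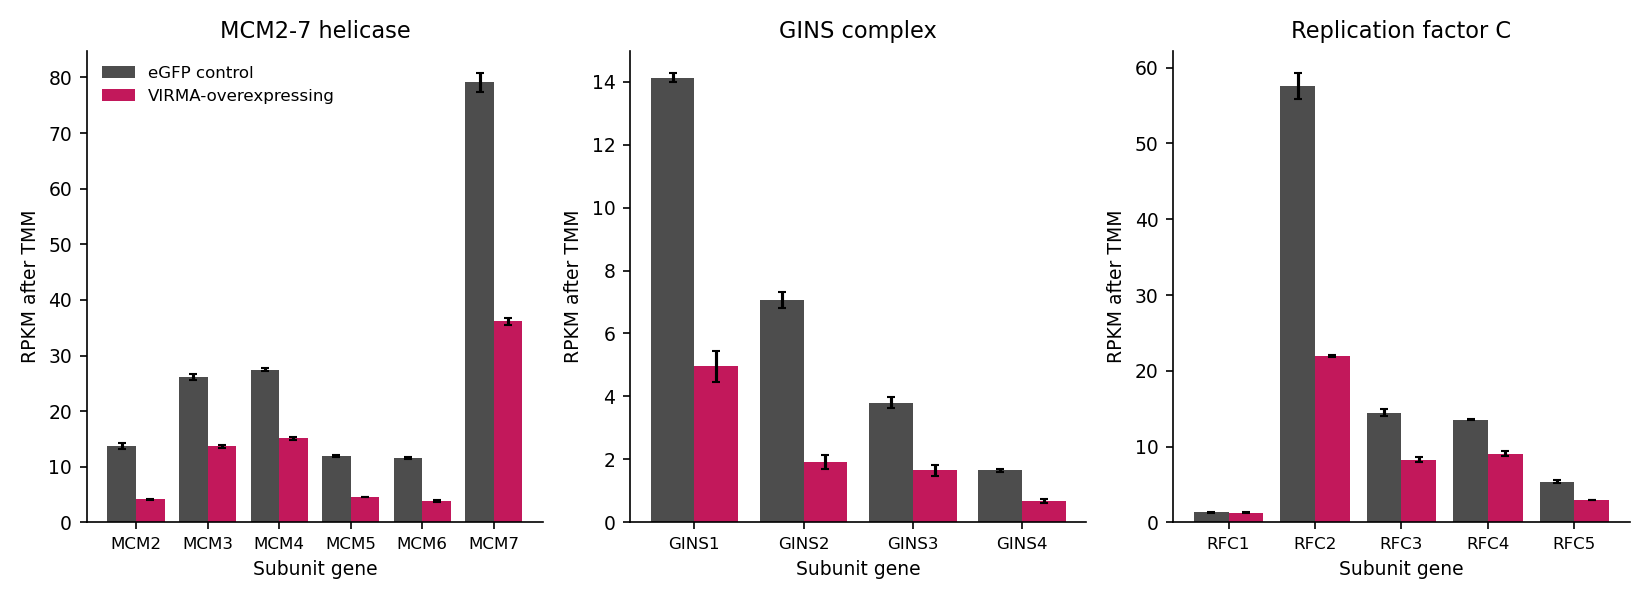
Mean RPKM after TMM (y axis, bars from 0, error bars SD over 2 libraries) is shown for the subunits of the MCM ring, the GINS complex and replication factor C in both groups. Every VIRMA-overexpressing bar is below its control, by the least for RFC1 (1.32 and 1.29 RPKM, within the spread of its libraries), and MCM7, GINS1 and RFC2 are the highest of their complexes in both groups.

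Of the 8 genes that activate the helicase, all fell and 6 passed the fold threshold, with a median log2 fold change of -1.35. MCM10 (GRCh38 chromosome 10, 13161554 to 13211104, plus strand), which is needed for the assembled helicase to start unwinding, was at 19.99 and 19.1 CPM in eGFP control cells and 4.68 and 5 CPM in VIRMA-overexpressing cells. It fell by 2.01 ± 0.0936 in log2 units (adjusted p = 4.29e-20), among the largest changes of the 41 genes. CDC45 was at 37.6 and 38.4 CPM in eGFP control cells and 13.5 and 14.6 CPM in VIRMA-overexpressing cells and fell to 36.96% of control. Among the GINS subunits, GINS2 was at 23.7 and 22.5 CPM in eGFP control cells and 5.77 and 6.79 CPM in VIRMA-overexpressing cells, a log2 change of -1.88 ± 0.0882 (adjusted p = 5.78e-20). GINS1 was at 57.9 and 57.1 CPM in eGFP control cells and 18.7 and 21.6 CPM in VIRMA-overexpressing cells, or 35.05% of control. GINS3 (20.01 and 18.8 against 9.05 and 7.79 CPM) and GINS4 (9.23 and 8.84 against 3.504 and 4.01 CPM) fell to 43.4% and 41.5%. GINS4 shares 23.6% and GINS3 10.9% of exonic bases with opposite-strand transcripts, none of which had over 13 counts in any library.

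Both subunits of the kinase that fires origins fell without reaching the fold threshold. Its catalytic subunit CDC7 was at 8.104 and 6.64 CPM in eGFP control cells and 3.76 and 3.95 CPM in VIRMA-overexpressing cells, a log2 change of -0.94 ± 0.136 (adjusted p = 1.81e-07). The call against the threshold depends on the control library used: without eGFP control replicate 2 the value was -1.07, and without eGFP control replicate 1 it was -0.79. DBF4, its activating subunit, was at 22.5 and 23.3 CPM in eGFP control cells and 14.8 and 14.7 CPM in VIRMA-overexpressing cells, or 64.4% of control.

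PCNA (GRCh38 chromosome 20, 5114953 to 5126626, minus strand), the ring that tethers polymerases to DNA, was among the most abundant transcripts of the list at 220.4 and 217 CPM in eGFP control cells and 72.4 and 71.7 CPM in VIRMA-overexpressing cells. It fell by 1.60 ± 0.0343 in log2 units (adjusted p = 3.46e-30) to 32.9% of control, and rows named as its pseudogenes had at most 11 counts. Replication factor C, made of 5 subunits, opens the clamp and loads it onto DNA. RFC2 was at 129.9 and 125 CPM in eGFP control cells and 48.6 and 48.3 CPM in VIRMA-overexpressing cells and fell past the fold threshold (-1.39 ± 0.0391, adjusted p = 1.46e-26). RFC3 (40.6 and 42.4 against 24.4 and 23.1 CPM), RFC4 (40.5 and 40.9 against 26.4 and 27.8 CPM) and RFC5 (16.9 and 17.8 against 9.71 and 9.47 CPM) fell to 57.2%, 66.6% and 55.2% of control without reaching it. RFC5 shares 10.65% of its exonic bases with opposite-strand transcripts, 5.72% of them with WSB2. WSB2 had 1566 and 1661 control counts and 1220 and 1168 counts with VIRMA. Whether the counting used strand is not stated, so the RFC5 level is uncertain.

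RFC1, the large subunit specific to the clamp loader used in replication, was the 1 gene of the 41 that did not pass the test. Its values of 8.62 and 9.12 CPM in eGFP control cells and 8.84 and 8.45 CPM in VIRMA-overexpressing cells overlapped. The log2 fold change was -0.04 with a standard error of 0.104 (adjusted p = 0.762), which turned positive with upper-quartile factors (0.034), library totals (0.047) and without eGFP control replicate 2 (0.003). RFC1 was also the lowest of the 5 subunits per length, at 1.32 ± 0.0522 RPKM in eGFP control cells and 1.29 ± 0.0416 RPKM with VIRMA (SD, n = 2). RFC2 was 45.8 and 41.5 times as high as RFC1 in the controls and 16.7 and 17.4 times with VIRMA overexpressed.

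All 6 polymerase and primase genes fell and 3 passed the fold threshold. POLE2 (GRCh38 chromosome 14, 49643555 to 49688422, minus strand), an accessory subunit of the leading-strand polymerase epsilon, was at 8.18 and 10.01 CPM in eGFP control cells and 3.48 and 3.54 CPM in VIRMA-overexpressing cells, a log2 change of -1.37 ± 0.131 (adjusted p = 1.63e-11). The catalytic subunit POLE was at 138 and 138 CPM in eGFP control cells and 84.5 and 82.4 CPM in VIRMA-overexpressing cells and fell to 60.5% of control. Per length, POLE2 was 0.333 and 0.408 times the level of POLE in the controls and 0.232 and 0.242 times with VIRMA overexpressed. POLD1, the catalytic subunit of the lagging-strand polymerase delta, was at 64.7 and 66.5 CPM in eGFP control cells and 28.03 and 29.9 CPM in VIRMA-overexpressing cells, or 44.1%.

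Polymerase alpha and primase lay down the RNA-DNA primers from which synthesis starts. POLA1, the catalytic subunit, was at 19.4 and 17.7 CPM in eGFP control cells and 10.4 and 11.3 CPM in VIRMA-overexpressing cells, or 58.7% of control. POLA2, its accessory subunit, was at 36.96 and 38.2 CPM in eGFP control cells and 19.3 and 17.4 CPM in VIRMA-overexpressing cells with a log2 fold change of -1.03, just past the threshold. Without VIRMA-overexpressing replicate 2, and with upper-quartile factors or library totals, POLA2 did not reach -1. PRIM1, the catalytic primase subunit, had the weakest call of the genes that fell, at 8.61 and 8.08 CPM in eGFP control cells and 5.03 and 5.49 CPM in VIRMA-overexpressing cells (log2 fold change -0.67 ± 0.119, adjusted p = 7.33e-06). PRIM1 shares 6.77% of its exonic bases with other genes, among them 1.35% with NACA on the same strand, which had 65731 and 67220 control counts and 79855 and 79683 counts when VIRMA was overexpressed.

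FEN1 (GRCh38 chromosome 11, 61792637 to 61797244, plus strand), the nuclease that trims the flaps of Okazaki fragments, was at 80.02 and 77.4 CPM in eGFP control cells and 20.8 and 21.4 CPM in VIRMA-overexpressing cells. It fell by 1.90 ± 0.0481 in log2 units (adjusted p = 5.88e-28) to 26.9% of control. LIG1, the ligase that seals the fragments, was at 72.3 and 74.1 CPM in eGFP control cells and 33.4 and 34.8 CPM in VIRMA-overexpressing cells and fell to 46.6%. FEN1 shares 8.68% of its exonic bases with neighbouring genes, mostly TMEM258 on the opposite strand, with 6007 and 6782 control counts and 5894 and 6426 counts when VIRMA was overexpressed.

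The 4 genes of dNTP supply all fell past both thresholds. RRM2 (GRCh38 chromosome 2, 10122328 to 10131419, plus strand), the regulatory subunit of ribonucleotide reductase that limits dNTP production in S phase, was at 192 and 191 CPM in eGFP control cells and 47.5 and 44.2 CPM in VIRMA-overexpressing cells. Its log2 change of -2.06 ± 0.0386 (adjusted p = 6.63e-32) was the lowest of the 41 genes together with ORC1, and it had the smallest adjusted p. RRM1, the catalytic subunit, was at 50.3 and 46.8 CPM in eGFP control cells and 24.3 and 24.2 CPM in VIRMA-overexpressing cells, a log2 change of -1.0004 ± 0.0545 (adjusted p = 4e-18) that sat on the threshold. RRM1 was no longer past -1 under 6 alternatives, and its value ran from -1.05 to -0.92 over all of them. Per length, RRM2 was 3.22 and 3.44 times RRM1 in the controls and 1.65 and 1.54 times with VIRMA overexpressed.

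TYMS, thymidylate synthase, was at 38.05 and 36.2 CPM in eGFP control cells and 13.6 and 14.6 CPM in VIRMA-overexpressing cells, and TK1, the thymidine kinase of the salvage route, at 394 and 398 CPM in eGFP control cells and 176 and 184 CPM in VIRMA-overexpressing cells. They fell to 38.05% and 45.5% of control, and TK1 remained the most abundant of the 41 genes by CPM and RPKM in each library. TYMS shares 26.2% of its exonic bases with opposite-strand genes, mostly ENOSF1, with 4296 and 4279 control counts and 6666 and 6366 counts when VIRMA was overexpressed. The library kit marks strand but whether the counting used it is not stated, so the TYMS level is uncertain.

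Of the genes that rebuild chromatin behind the fork, CHAF1A (GRCh38 chromosome 19, 4402662 to 4445018, plus strand), the large subunit of the histone chaperone CAF-1, was at 46.5 and 43.9 CPM in eGFP control cells and 12.2 and 12.9 CPM in VIRMA-overexpressing cells and fell to 27.9% of control. CHAF1B, its partner, was at 42.9 and 43.6 CPM in eGFP control cells and 24.3 and 24.1 CPM in VIRMA-overexpressing cells and fell to 55.9%, short of the fold threshold. Per length, CHAF1B was 0.776 and 0.836 times CHAF1A in the controls and 1.67 and 1.56 times in the VIRMA-overexpressing libraries. Where these ratios stand against 1 depends on the exonic lengths used, 5118 bases for CHAF1B and 4299 for CHAF1A. UHRF1 (GRCh38 chromosome 19, 4903080 to 4962154, plus strand), which recruits the maintenance DNA methyltransferase to newly copied DNA, was at 53 and 54.4 CPM in eGFP control cells and 13.7 and 13.6 CPM in VIRMA-overexpressing cells, a log2 change of -1.97 ± 0.0578 (adjusted p = 5.01e-26).

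The genes just inside and just outside the fold threshold were RRM1 (-1.0004) and POLA2 (-1.03) on one side and CDC7 (-0.94) and MCM3 (-0.93) on the other, and RRM1, POLA2 and CDC7 lay within 1 standard error of -1. When the change itself was tested against 2-fold, 23 of the 41 genes passed. The genes lie on 20 chromosomes, with at most 4 on any of them.

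Most other genes of the same processes also fell, with medians nearer 0. Over all tested genes, 35.9% fell and 35.1% rose at the adjusted p, and 2.93% fell past both thresholds. Of 32 tested genes among 35 further fork and origin genes, 27 fell and 4 rose at the adjusted p, 6 fell past both thresholds, and the median log2 fold change was -0.61. The fork helicase RECQL4 went from 98.8 ± 2.15 to 40.6 ± 1.42 CPM and the alternative clamp loader subunit DSCC1 from 61.3 ± 0.271 to 22.03 ± 1.61 CPM (SD, n = 2), while TIMELESS and RNASEH2A had log2 fold changes of -1.0031 and -1.25. ORC4 (0.36), MTBP (0.18), POLD4 (0.39) and ORC2 (0.17) rose. Of the other subunits of the origin recognition complex, named after their values were seen, ORC5 fell by 0.17 on the log2 scale (adjusted p = 0.00998) and ORC3 had a log2 change of 0.05 (adjusted p = 0.632).

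Among 11 tested genes of 12 with other roles in dNTP metabolism, 9 fell and 0 rose at edgeR's adjusted p. The shares over all tested genes were 35.9% and 35.1%, and the list's median was -0.63. The dCTP pyrophosphatase DCTPP1 was at 73.1 and 73.8 CPM in eGFP control cells and 33.1 and 32.1 CPM in VIRMA-overexpressing cells, and DTYMK and NME1 had log2 fold changes of -1.14 and -0.63. De novo purine and pyrimidine synthesis makes the ribonucleotides from which dNTPs are reduced. Of its 15 tested genes of 17, 7 fell, 3 rose and 5 did not pass, beside 35.9% lower and 35.1% higher over all tested genes, none reached the fold threshold, and the median was -0.07. IMPDH1 (-0.73), PAICS (-0.50), UMPS (-0.56) and CTPS1 (-0.33) fell, and ADSS (0.21), ATIC (0.13) and CAD (0.09) rose. The difference of this list from the dNTP genes was not tested.

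Of 9 tested genes among 10 others that act on replicating chromatin, 7 fell, 3 of them past both thresholds. Beside these and the next counts, 35.9% of all tested genes fell and 35.1% rose at the adjusted p. Past both thresholds, 2.93% fell and 4.52% rose. The histone chaperone ASF1B was at 51.7 and 54.1 CPM in eGFP control cells and 15.1 and 14.04 CPM in VIRMA-overexpressing cells, the maintenance methyltransferase DNMT1 fell by 1.04 and TONSL by 1.18 on the log2 scale, and NASP was at -0.49. In the E2F and RB family with the G1/S cyclins (16 tested of 18), 11 fell, 7 past both thresholds, and 1 rose. E2F2, an activator like E2F1, was at 26.98 and 25.9 CPM in eGFP control cells and 7.81 and 6.52 CPM in VIRMA-overexpressing cells. The phosphatase CDC25A, cyclin E1 (CCNE1) and the E2F partner TFDP1 had log2 fold changes of -1.49, -1.41 and -0.80. The gene that rose was RBL2, a pocket protein that holds E2F target genes down in resting cells, at 26.1 and 26.97 CPM in eGFP control cells and 56.5 and 52.7 CPM in VIRMA-overexpressing cells (log2 fold change 1.04 ± 0.0519, adjusted p = 3.36e-19). RB1, named after its values were seen, had a log2 change of -0.01 (adjusted p = 0.891).

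Beyond S phase, 39 of 40 mitosis and chromosome segregation genes fell at the adjusted p but 9 past both thresholds, with a median of -0.75. The shares of all tested genes were 35.9% lower and 35.1% higher at the adjusted p, and 2.93% lower past both thresholds. AURKA, BIRC5, CDC20 and NCAPD2, with the smallest adjusted p, had log2 fold changes of -0.99, -1.28, -1.03 and -0.95. For homologous recombination and Fanconi anemia genes, 14 of 18 tested (26 listed) fell and 1 rose, 4 fell past both thresholds, and the median was -0.65. These medians stand beside -1.20 for the 41 genes; the lists were not tested against each other.

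**Figure D5:**
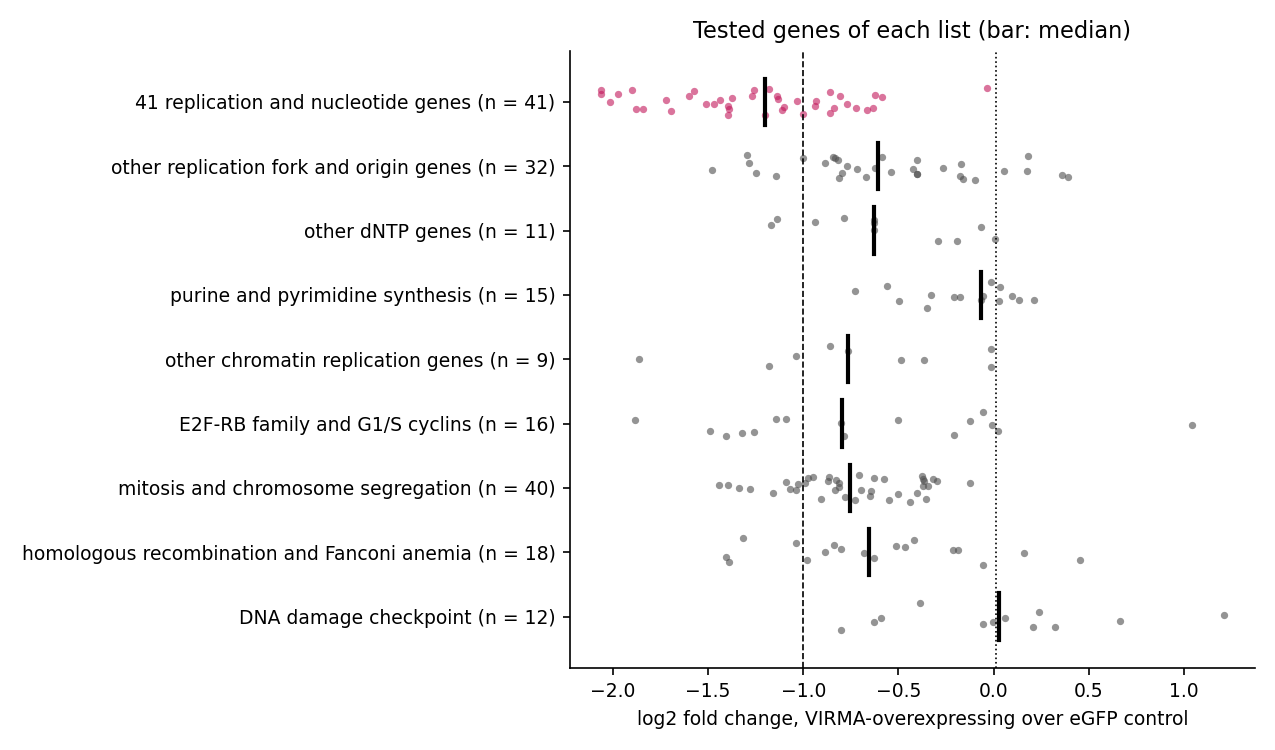
Each point is the log2 fold change (x axis) of 1 tested gene, by list, with a bar at the list's median, a dashed line at -1 and a dotted line at the median of all tested genes (0.01). The 41 replication and nucleotide genes have a median of -1.20, the mitosis list -0.75, and purine and pyrimidine synthesis -0.07.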

How the data were processed

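Per the labels and the study's methods, the authors used Trimmomatic 0.39 for trimming, STAR 2.5.2a for alignment to hg38 and featureCounts for counting, and called genes with DESeq2. The deposited table holds unnormalized counts for each gene with exon coordinates and lengths. The strand setting and the treatment of reads with several alignments are not given in the sources used here, so overlapping genes are uncertain. One build named in the notes is of mouse, but of 34009 rows matched by symbol to a human GRCh38 annotation, 99.74% lay at an overlapping position. The control columns name the control, and the other 2 columns, which carry a number, were assigned as the remaining group, which VIRMA itself checks.

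Depth was 81446932 to 86375474 counts per library. The 12205 genes whose RPKM exceeded 1 in 2 or more libraries entered edgeR 4.0.16 (R 4.3.3, quasi-likelihood F test, TMM factors, library sizes over all rows, a single group term). P-values were adjusted over these genes by Benjamini-Hochberg, and each standard error follows from the estimate and its F value. CPM and RPKM were scaled by TMM. Replicates were not identical, with a chi-square per degree of freedom of 7.87 for the control pair and 6.18 for the VIRMA pair, and p-values measure the spread between these libraries only. The script was tested on simulated counts. Alternatives were DESeq2 1.42.0, limma-voom (limma 3.58.1), 3 other scalings, 3 other filters, leave-one-out fits, a block for replicate number and a test against 2-fold.

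The genes, the other lists and the tests were chosen with earlier results of these data known. All 41 genes are named. Of each other list, at most the 4 genes with the smallest adjusted p in each direction are named, with any said to be named after their values were seen, and marker genes, and some items are not reported here. Promoter sequence is shown for at most 6 genes, those that fell most among genes past both thresholds with E2F-type letters. Ratios between subunits and their pairs were chosen after the values of the list were known.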

Additional observations from a re-analysis of the deposited data

How the results depend on the processing

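All 40 genes that fell at the adjusted p did so under every alternative except the test against 2-fold, where this count was not taken, and 0 rose. The count past both thresholds, 28, ran from 26 (upper-quartile factors, library totals) to 28 under the scalings, filters and tools, and was 23 when tested against 2-fold. The median log2 fold change of the 41 genes was -1.203, with a replicate spread of 0.022. That spread is the SD of the median over the 4 contrasts of single libraries, which share libraries. These contrasts ran from -1.204 to -1.154, so a median past the SD can still lie within their range. The median moved past this spread with upper-quartile factors (-1.132), library totals (-1.12), no filter (-1.237), filterByExpr (-1.247) and a minimum of 10 counts per library (-1.233). Leaving out a library ran the count from 26 to 29 and the median from -1.22 to -1.173, past that spread without VIRMA-overexpressing replicate 1 (-1.173) or 2 (-1.179), where a group of 1 library was assumed to vary like the other group. RFC1 reversed with upper-quartile factors (0.034), library totals (0.047) and without eGFP control replicate 2 (0.003), with adjusted p of 0.778, 0.699 and 0.983, and ran from -0.081 to 0.003 when a library was left out. These 2 scalings moved the all-gene median by 0.072 and 0.083. The other causes were not tested.

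Replicate numbers did not pair the libraries (correlation of deviations 0.086 across genes), and with the replicate block the count was 27, the median -1.206 and VIRMA 2.289. Counts over all tested genes moved most with the filter, from 358 lower and 552 higher to 820 and 1137 with no filter, 808 and 1044 with filterByExpr, 689 and 930 under the 10-count minimum, and to 173 and 189 when tested against 2-fold. These filters tested 33976, 20568 and 17791 genes. Depth did not limit the comparison, since the lowest count of any of the 41 genes was 266.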

Other observations

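Among 12 DNA damage checkpoint genes, 4 fell and 5 rose at edgeR's adjusted p, near the 35.9% lower and 35.1% higher over all tested genes, and the median log2 fold change was 0.03. ATM, the kinase that responds to double-strand breaks, was at 21.3 and 19.9 CPM in eGFP control cells and 47.5 and 47.5 CPM in VIRMA-overexpressing cells and rose past both thresholds (1.21 ± 0.0564 SE, adjusted p = 4.87e-20). RAD17, which loads the checkpoint clamp, and WEE1, which holds back entry into mitosis, rose with log2 fold changes of 0.67 and 0.24. CHEK1, the checkpoint kinase of S phase, fell by 0.80 on the log2 scale, and RAD1, ATRIP and CHEK2 fell by 0.63, 0.59 and 0.39. CDKN1A, the cyclin-dependent kinase inhibitor p21, named after its values were seen, was at 13.6 and 12.6 CPM in eGFP control cells and 12.4 and 13.7 CPM in VIRMA-overexpressing cells (log2 fold change -0.01, edgeR adjusted p 0.96), and the groups overlapped.

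Across the 41 replication and nucleotide genes, the correlation of the log2 fold change was low with the control level in log2 RPKM (Pearson's r -0.257, Spearman's rho -0.26) and with exonic length (0.245 and 0.207). These are descriptions across genes that share the same 4 libraries, not tests. Within polymerase alpha and primase, the level of PRIM1 per length stood at 1.15 and 1.19 times that of POLA1 in the controls and 1.25 and 1.26 times in the VIRMA-overexpressing libraries. GINS2 was 1.85 and 1.87 times GINS3 in the controls and 0.997 and 1.36 times in the VIRMA-overexpressing libraries.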
